A study of Mus musculus with 4 samples.

Results

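The proteasome genes of Neuro-2A cells were examined after overexpression of Zac1, a zinc-finger transcription factor. Genes were taken by symbol, as all lines with a gene ID whose symbol begins with Psma, Psmb, Psmc, Psmd, Psme, Psmf or Psmg and a number. This gave 47 of 12861 genes, of which 46 had a mean value of at least 10 and entered the test. The symbol also catches Psmc3ip, which encodes a cofactor of meiotic recombination and no proteasome protein, so 46 of the 47 are proteasome genes.

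Neuro-2A is a mouse neuroblastoma line, labelled as of Swiss Albino origin. The tested cells carried the plasmid pRK5-Zac1 and the control cells pRK5-CAT, which encodes bacterial chloramphenicol acetyltransferase. Both were transfected with Lipofectamine and lysed after 16 h, and each group held 2 libraries from separate transfections, named 9 and 12 in the titles. The sources used here do not give the share of cells that took up plasmid, and each value is a mean over transfected and untransfected cells. Fewer cells with a transcript and less of it per cell cannot be told apart in such bulk RNA.

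The 26S proteasome degrades proteins marked with ubiquitin. Its 20S core is a barrel of alpha rings, which gate the entrance, around beta rings, which hold the proteolytic sites. The 19S cap binds and removes ubiquitin, and its ATPase ring unfolds the substrate and threads it into the barrel. Dividing cells, as in a neuroblastoma line, depend on it to destroy cyclins and other short-lived regulators, and in mammals the transcription factor Nfe2l1 raises its genes together when proteasome activity falls.

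The libraries were made by digital gene expression (DGE), which counts a short tag beside a GATC site, cut by DpnII, in each polyadenylated transcript. Values are normalised counts, that is, tag counts that the authors moved to a common library size. A transcript yields 1 tag whatever its length, so levels were not divided by length, although transcripts can differ in how well their tag is captured or placed. Recovered totals were 12442532 and 12812457 counts in the Zac1 libraries and 11578920 and 13840674 in the CAT libraries. Plagl1, the gene of Zac1, was at 3397 and 1475 in the Zac1 libraries and listed at 0 in both CAT libraries. Of 12 neuroblastoma identity genes 11 had values, which summed to 38417 and 38683 in the Zac1 libraries and 43131 and 39955 in the CAT libraries. Of 6 macrophage and lymphocyte markers 2 had values, summing to 7.45 to 12.1 over the libraries. Likewise 3 of 6 fibroblast markers summed to 15.0 to 35.6 and 3 of 4 endothelial markers to 14.8 to 27.3. Of 5 glial markers 3 had values, summing to 389 and 377 in the Zac1 libraries and 333 and 243 in the CAT libraries, nearly all of it Mbp.

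The tag windows below show what was counted for the catalytic subunits and their exchangeable immune counterparts, together with Psma5 and Psmd14, 2 of the genes with the lowest fold changes. Each is the GATC site nearest the 3′ end of the gene's principal coding transcript, in capitals, and the 16 bases after it, read from GENCODE M21 transcripts (GRCm38). They are predicted windows, since the tag sequences themselves were not used here.
Psmb5: GATCcgggtgtccagtgaca
Psmb8: GATCtgtggctgggacaaga
Psmb6: GATCcgcttggcagccattc
Psmb9: GATCagcatgcccttccatt
Psmb7: GATCtgtgtgttatcagcaa
Psmb10: GATCactgcagggggtgcca
Psma5: GATCaaggacatttaagaag
Psmd14: GATCccatttactatttgaa
In GRCm38 the window of Psmb5 lies at chr14:54614239-54614258 on the minus strand, in the coding part of exon 3. That of Psmb8 lies at chr17:34200249-34200268 on the plus strand, in the coding part of exon 4. Psmb6 has its window at chr11:70527480-70527499 on the plus strand and Psmb7 at chr2:38590751-38590770 on the minus strand, both coding. The window of Psmb10, at chr8:105936039-105936058 on the minus strand, is coding as well. Psmb9 is read from the 3′ UTR, at chr17:34182074-34182093 on the minus strand. Psmd14 is also read from the 3′ UTR, at chr2:61800294-61800313 on the plus strand. The window of Psma5, at chr3:108279797-108279816 on the plus strand, runs from coding sequence into the UTR.

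Such a window could be read for 46 of the 47 genes, and it lay within coding sequence for 23, in the 3′ UTR for 20 and across their border for 3. For 37 of them it was found in no other annotated gene. The window of Psmc4 would run past the end of its transcript. For Psma4, Psma5, Psmb3, Psmb5, Psmb6, Psmc1, Psmd2, Psmd8 and Psme2 the same letters stand in at least 1 other annotated gene, so their values are uncertain. For Psmb5 these are Gm3375 and Psmb5-ps, for Psmb6 it is Psmb6-ps2 and for Psma5 it is Gm8394. The windows of Psma7, Psmb2, Psmb4 and Psmd10 cross an exon junction.

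Proteasome genes were abundant in every library. Their median level was 1932 normalised counts over the 4 libraries, against 238 over all genes listed, and 43 of 47 lay above the median gene. In 30 of the 47 (63.8%) the level was at least 1000, against 18.9% of all genes. Together they took 0.828% and 0.772% of the recovered counts in the Zac1 libraries and 0.835% and 0.778% in the CAT libraries. The share was thus higher in the libraries numbered 9 than in those numbered 12 in either group.

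**Figure D1:**
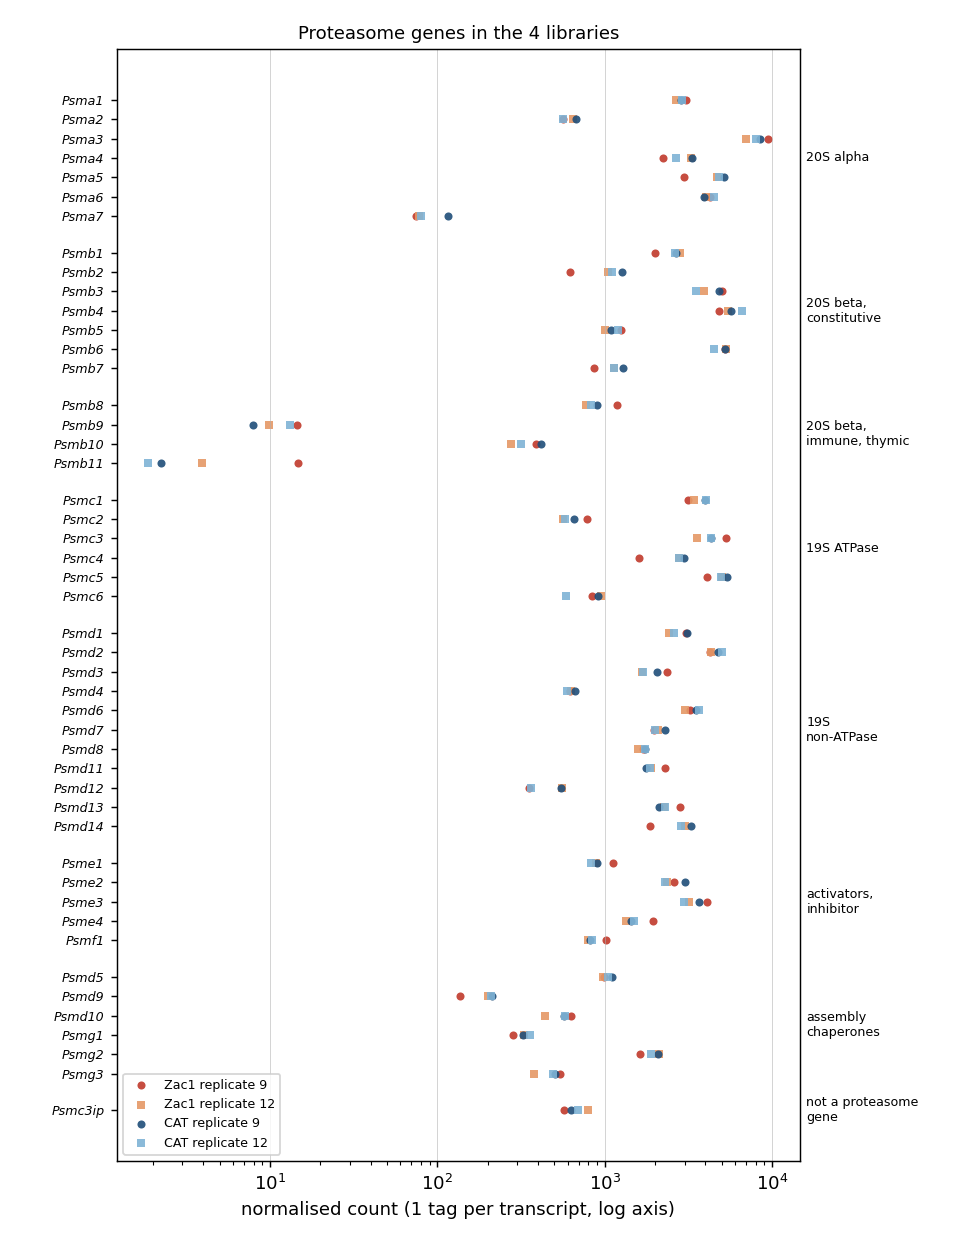
Normalised counts of the 47 genes (log axis) in Zac1 replicates 9 and 12 and CAT replicates 9 and 12, with genes grouped by their place in the complex. Of the 47 genes 30 have a mean of at least 1000, Psmb9 and Psmb11 lie far to the left, and the point of Zac1 replicate 9 often stands apart from the other points of its line.

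None of the 46 genes tested passed as higher or lower after Zac1 (limma, two-sided, Benjamini-Hochberg adjusted p threshold 0.05 over all genes tested), with a smallest adjusted p of 0.766. Over all 11433 genes tested, 0.962% passed as higher and 0% as lower. At an unadjusted p under 0.05, 0 of the 46 were higher and 1, Psmb2, was lower, against 5.23% and 0.962% of all genes. The log2 fold changes ran from -0.54 to 0.29, with a median of -0.07 against -0.01 over all genes tested. Their median size, sign set aside, was 0.13, against 0.19 over all genes tested. This comparison was not matched for level, and the proteasome genes were the more abundant, as given above.

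The 95% interval of the log2 fold change lay inside -1 to 1, that is, within a 2-fold change either way, for 44 of the 46 genes (95.7%), against 74.3% of all genes tested. The exceptions were Psmb2, at -1.07 to -0.01, and Psmb9, at -1.20 to 1.63. The share over all genes was not matched for level. The median level was 1932 for the proteasome genes and 238 over all genes listed, and the variance trend in limma ties interval width to level. In 31 genes (67.4%) the fold change was below 0 and in 15 above, against 51.6% below 0 over all genes tested. Scaling the libraries to equal totals moved all genes alike and put their median at 0.05, with 42.9% below 0. On that scale 23 of the 46 genes were below 0 and 23 above, with a median of -0.01. With the GC correction 27 were below 0 (58.7%), against 50.9% over all genes. The count also moved with single libraries. It was 24 (52.2%) without CAT replicate 9 and without Zac1 replicate 12, against 52.2% and 50.4% over all genes. Without Zac1 replicate 9 it was 35 (76.1%, against 49.7%), and without CAT replicate 12 it was 33 (71.7%, against 51.6%). Both Zac1 libraries lay below both CAT libraries in 12 genes (26.1%), where the background over all genes was 16.7%, and above them in 1 gene (2.17%), where it was 17.2%.

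**Figure D2:**
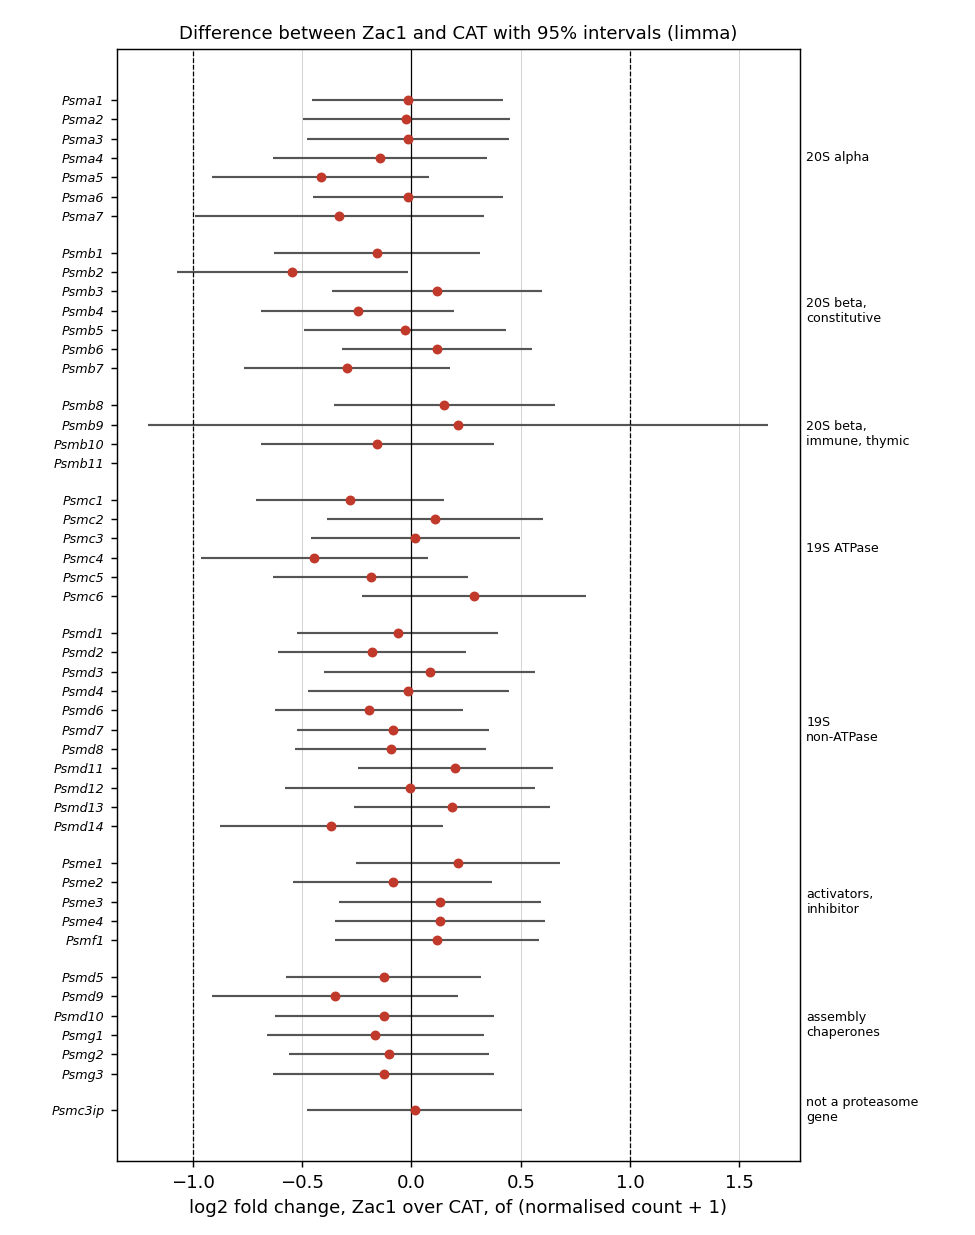
Log2 fold change of (normalised count + 1), Zac1 over CAT, for each gene tested (points) with its 95% interval from limma (bars); dashed lines mark a 2-fold change and Psmb11, which was not tested, has no point. Fold changes run from -0.54 to 0.29, and the intervals of all but Psmb2 and Psmb9 stay between the dashed lines.

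The alpha subunits form the outer rings of the core and open or close its entrance. All 7 measured had log2 fold changes below 0, from -0.41 to -0.01, with a median of -0.02, and none passed. With equal totals the median was 0.04, against 0.05 over all genes. After a GC correction it was 0.08, against -0.01 over all genes. Summed over the ring, normalised counts averaged 22571 ± 200 in Zac1 cells and 24056 ± 696 in CAT cells (SD, n = 2 each). Psma3 had the highest level of the group. It was at 9522 and 6995 in the Zac1 libraries, against 8495 and 7994 in the CAT libraries (log2 fold change -0.01 ± 0.22, SE). The Zac1 values lay on either side of both CAT values. Psma5 was at 2966 and 4720 in the Zac1 libraries and 5140 and 4835 in the CAT libraries (-0.41 ± 0.23, limma adjusted p = 0.928). The groups did not overlap, but Zac1 replicate 12 lay close under CAT replicate 12 and only Zac1 replicate 9 was far below. Without that library the log2 fold change was -0.08. Psma7, chosen after its values were seen, was much lower than the rest of the ring, at 74.8 and 78.1 in the Zac1 libraries and 116 and 79.6 in the CAT libraries. Its window crosses an exon junction, and whether that bears on its level was not tested.

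Of the constitutive beta subunits, which include the 3 proteolytic ones, 2 were above 0 and 5 below, with a median log2 fold change of -0.16 and none passing. Their sum averaged 20288 ± 644 normalised counts in Zac1 cells and 21335 ± 1007 in CAT cells (SD, n = 2 each), and the sums of single libraries overlapped between the groups. Psmb2, a non-catalytic subunit of the ring, had the lowest fold change of all members. It was at 624 and 1048 in the Zac1 libraries, against 1264 and 1102 in the CAT libraries. The groups did not overlap, and the gap between the Zac1 libraries was wider than that between Zac1 replicate 12 and CAT replicate 12. The log2 fold change was -0.54 ± 0.25 (SE; limma adjusted p = 0.766), and -0.17 without Zac1 replicate 9. Psmb4, the most abundant of this ring, was at 4852 and 5493 in the Zac1 libraries and 5700 and 6574 in the CAT libraries (-0.25 ± 0.21). Psmb3 was at 5040 and 3922 in the Zac1 libraries and 4800 and 3493 in the CAT libraries (0.12 ± 0.23), so libraries of the same number were nearer to each other than libraries of the same group.

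The catalytic subunits can be exchanged for immune counterparts, which alter the peptides cut for antigen presentation and are known to be raised by interferon gamma. At the chymotrypsin-like position the constitutive Psmb5 was at 1260 and 1005 in the Zac1 libraries and 1092 and 1206 in the CAT libraries (log2 fold change -0.03 ± 0.22, SE). Its counterpart Psmb8 was at 1190 and 769 in the Zac1 libraries and 898 and 827 in the CAT libraries (0.15 ± 0.24). The ratio of Psmb8 to Psmb5 was 0.945 and 0.766 in the Zac1 libraries and 0.822 and 0.686 in the CAT libraries. Both genes were thus well expressed in control cells already, and their ratio overlapped between the groups.

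At the caspase-like position Psmb6 was at 5207 and 5308 in the Zac1 libraries and 5227 and 4486 in the CAT libraries (log2 fold change 0.12 ± 0.21, SE). Its counterpart Psmb9 was near silent, at 14.6 and 9.88 in the Zac1 libraries and 7.88 and 13.2 in the CAT libraries (0.21 ± 0.67). These are 15 and 10 recovered counts in the Zac1 libraries and 7 and 14 in the CAT libraries, and its interval, given above, took in a 2-fold change either way. At the trypsin-like position Psmb7 was at 859 and 1131 in the Zac1 libraries and 1289 and 1132 in the CAT libraries (-0.29 ± 0.22), without overlap but with the replicates numbered 12 almost equal. Its counterpart Psmb10 was at 388 and 276 in the Zac1 libraries and 417 and 318 in the CAT libraries (-0.15 ± 0.25). The ratio of Psmb10 to Psmb7 was 0.451 and 0.244 in the Zac1 libraries and 0.323 and 0.281 in the CAT libraries, with the Zac1 values on either side of the CAT values.

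**Figure D3:**
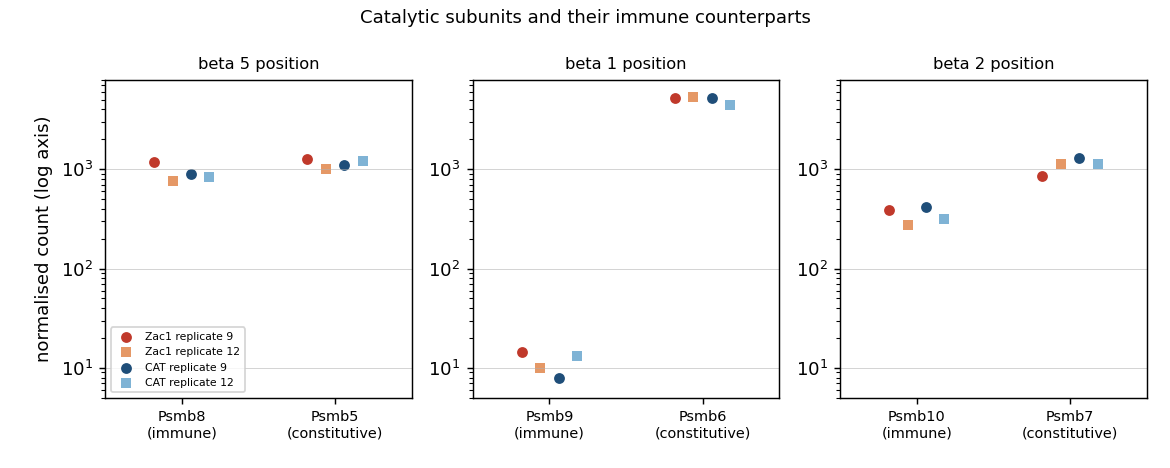
Normalised counts (log axis) of the 3 immune catalytic subunits and of the constitutive subunits they replace, 1 point per library. Psmb8 and Psmb5 lie at like levels in all 4 libraries, Psmb10 lies below Psmb7, and Psmb9 lies at 7.88 to 14.6 while Psmb6 lies at 4486 to 5308.

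Psmb11, the thymus-specific counterpart of Psmb5, was the one member under the minimum mean and was not tested. It was at 14.6 and 3.94 in the Zac1 libraries and 2.22 and 1.87 in the CAT libraries, which are 15 and 4 recovered counts in the Zac1 libraries and 2 and 2 in the CAT libraries. Only Zac1 replicate 9 stood out. In a fit with no minimum its log2 fold change was 1.53 ± 0.89 (SE, limma adjusted p = 0.894).

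The genes that work beside the immune subunits did not pass either. Of 9 partners in antigen presentation, 8 had values and 7 were tested, with 2 above 0, 5 below and a median log2 fold change of -0.06, which was 0.01 with equal totals. B2m, the light chain of MHC class I, was at 3585 and 3947 in the Zac1 libraries and 4020 and 3616 in the CAT libraries. Irf1, an interferon-induced transcription factor, was at 362 and 427 in the Zac1 libraries and 394 and 452 in the CAT libraries. Of this list Erap1, a peptidase that trims peptides for presentation, had the smallest unadjusted p (log2 fold change -0.35 ± 0.23, SE; limma adjusted p = 0.955). Nlrc5, an activator of MHC class I genes, was below the minimum, at 4.84 and 6.93 in the Zac1 libraries and 9.85 and 3.68 in the CAT libraries.

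The 6 ATPases form the unfolding ring at the base of the cap. They split evenly, with 3 above 0 and 3 below, and none passed. The median log2 fold change was -0.08, and -0.02 with equal totals, against 0.05 over all genes. Their sum averaged 16068 ± 380 normalised counts in Zac1 cells and 17726 ± 696 in CAT cells (SD, n = 2 each). Both Zac1 sums, 15799 and 16337, lay below both CAT sums, 18218 and 17234. The sums of the alpha ring, the non-ATPase subunits and the assembly chaperones parted likewise, while those of the remaining groups overlapped. Deposited totals over all genes parted too, at 12084125 and 12668359 in the Zac1 libraries and 12848227 and 12987702 in the CAT libraries. The sums are on the deposited scale and were not scaled to equal totals, so their parting may not hold on that scale. Psmc4 was at 1614 and 2770 in the Zac1 libraries and 2978 and 2778 in the CAT libraries (-0.44 ± 0.25, SE; limma adjusted p = 0.923). Here 3 libraries lay within a narrow band and Zac1 replicate 9 was far below it, so that the log2 fold change was -0.05 without that library. Psmc1 was at 3163 and 3434 in the Zac1 libraries and 3971 and 4039 in the CAT libraries (-0.28 ± 0.20; adjusted p = 0.967 in limma). In this gene both Zac1 libraries were lower, and replicates of either group were close. Psmc6 had the highest fold change of all members tested, at 841 and 949 in the Zac1 libraries and 911 and 589 in the CAT libraries (0.29 ± 0.24). It overlapped between the groups, with CAT replicate 12 low. Psmc5, the most abundant ATPase gene, was at 4091 and 5049 in the Zac1 libraries and 5392 and 4963 in the CAT libraries (-0.19 ± 0.21).

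The 11 non-ATPase subunits of the cap bind ubiquitin chains, remove them and hold the cap together. Of these 3 were above 0 and 8 below, with a median log2 fold change of -0.06, which was 0.00 with equal totals, and none passed. Their levels ran from 456 for Psmd12 to 4593 for Psmd2. Psmd14, the deubiquitinase of the lid, was at 1855 and 3035 in the Zac1 libraries and 3274 and 2862 in the CAT libraries (-0.37 ± 0.24, SE). Zac1 replicate 12 lay between the CAT libraries and Zac1 replicate 9 was far below, and without the library numbered 9 the log2 fold change was -0.01. Psmd2, a scaffold of the base and the most abundant of this list, was at 4272 and 4341 in the Zac1 libraries and 4750 and 5007 in the CAT libraries (-0.18 ± 0.20), with no overlap and close replicates. Psmd11, a lid subunit, was the 1 gene tested with both Zac1 libraries above both CAT libraries. It was at 2305 and 1895 in the Zac1 libraries and 1771 and 1867 in the CAT libraries (0.20 ± 0.21), with Zac1 replicate 12 just above CAT replicate 12. Psmd13, also of the lid, was at 2807 and 2255 in the Zac1 libraries and 2119 and 2304 in the CAT libraries (0.19 ± 0.21).

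Alternative caps replace the 19S cap on the core, and Psmf1 inhibits the core. Of 5 measured, 4 were above 0 and 1 below, with a median log2 fold change of 0.13, and none passed. That median was -0.06 without Zac1 replicate 9, so its sign rested on that library. Psme1 and Psme2 encode the alternating subunits of the interferon-inducible 11S cap. Psme1 was at 1121 and 889 in the Zac1 libraries and 899 and 823 in the CAT libraries (0.21 ± 0.22, SE). Psme2 was at 2603 and 2364 in the Zac1 libraries and 3002 and 2306 in the CAT libraries (-0.09 ± 0.22). The ratio of Psme1 to Psme2 was 0.431 and 0.376 in the Zac1 libraries and 0.299 and 0.357 in the CAT libraries, the Zac1 values both being higher. Psme3, which encodes the nuclear 11S cap, was at 4102 and 3196 in the Zac1 libraries and 3652 and 2998 in the CAT libraries (0.13 ± 0.22), again with libraries of 1 number next to each other. Psme4, which encodes a large single-chain cap, was chosen after its values were seen. It was at 1935 and 1336 in the Zac1 libraries and 1444 and 1490 in the CAT libraries (0.13 ± 0.23), with the Zac1 values on either side. Psmf1, chosen likewise, was at 1015 and 799 in the Zac1 libraries and 819 and 843 in the CAT libraries (0.12 ± 0.22), with the same pattern.

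Assembly chaperones bind intermediates of the core or of the ATPase ring and are absent from the finished complex. All 6 measured were below 0, with a median log2 fold change of -0.13, which stayed below 0 with equal totals, at -0.06, and none passed. Psmd9, a chaperone of the ATPase ring, was at 137 and 201 in the Zac1 libraries and 213 and 210 in the CAT libraries (-0.35 ± 0.27, SE). Zac1 replicate 9 was low and the other 3 libraries lay close together. Psmg2, a chaperone of the alpha ring, was at 1630 and 2111 in the Zac1 libraries and 2092 and 1894 in the CAT libraries (-0.10 ± 0.22). Psmc3ip, the recombination cofactor, was at 568 and 792 in the Zac1 libraries and 633 and 696 in the CAT libraries (0.02 ± 0.23).

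The Zac1 libraries lay further apart than the CAT libraries. The median difference between replicates, sign set aside, was 0.35 on the log2 scale between the Zac1 libraries and 0.14 between the CAT libraries, against 0.34 and 0.20 over all genes tested. The replicate difference was under 0.3 for 17 of the 46 genes between the Zac1 libraries and for 38 between the CAT libraries. Zac1 replicate 9 was the lowest of the 4 libraries in 18 genes (39.1%) and the highest in 17 (37.0%), against a background of 36.2% and 33.7% over all genes. Zac1 replicate 12 was the lowest in 16 (34.8%) and the highest in 6 (13.0%), against 22.1% and 22.0% over all genes. CAT replicate 9 was the lowest in 4 (8.70%) and the highest in 16 (34.8%), against 2376 and 2405 of the 11433 genes tested. CAT replicate 12 was the lowest in 8 (17.4%) and the highest in 7 (15.2%), against 20.9% and 23.3%. Among the 12 genes with both Zac1 libraries below both CAT libraries, Zac1 replicate 9 was the lowest in 9 (75.0%). Over the whole table this held for 70.2% of the 1905 such genes.

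The difference between the Zac1 libraries moved with base composition across all genes. Over the 46 genes, Spearman's rho between transcript GC content and the difference of Zac1 replicate 9 from replicate 12 was 0.28, against 0.24 over the 11156 genes tested that had a GC value. For the difference between the CAT libraries these values were -0.04 and -0.07. For the log2 fold change of Zac1 over CAT they were 0.09 and 0.30. Over all genes the median log2 fold change was -0.08 below a GC content of 51.3% and 0.06 from there up. In the proteasome genes these medians were -0.07 and -0.06. Genes are not independent replicates, so these are descriptions. The median GC content of the proteasome genes was 50.4%, against 51.3% over all genes tested, and the part of GC content in single fold changes was not tested. With the GC trend of every library removed, the 46 log2 fold changes had a median of -0.03 and again none passed.

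**Figure D4:**
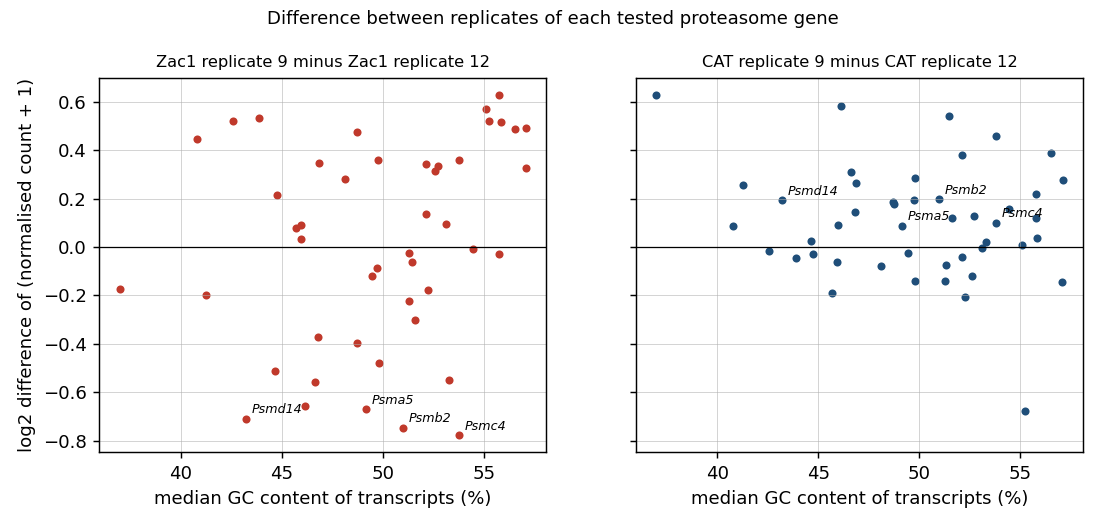
Log2 difference between replicates of each group against the median GC content of each gene's transcripts (%), 1 point per tested proteasome gene, Zac1 on the left and CAT on the right. Differences are wider between the Zac1 libraries, where Psmb2, Psmc4, Psma5 and Psmd14 have the lowest values, down to -0.78. In the CAT panel these 4 genes lie between 0.09 and 0.20.

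Of 53 genes that act with the proteasome, in 6 lists, 48 had values and 46 were tested. None passed, 16 had log2 fold changes above 0 and 30 below, and the median was -0.07, with a smallest adjusted p of 0.902 in limma. With equal totals 23 were above 0 and 23 below, against 42.9% below over all genes tested. Among other cap subunits and bound enzymes, 4 of 12 were above 0 and 8 below. Txnl1, a thioredoxin-like protein bound to the cap, had the smallest unadjusted p of that list, at 1944 and 2309 in the Zac1 libraries and 2466 and 2886 in the CAT libraries (-0.33 ± 0.21, SE). Uchl5 encodes a deubiquitinase of the cap and was at 1497 and 1601 in the Zac1 libraries and 1926 and 1776 in the CAT libraries (-0.26 ± 0.21). Both were lower in each Zac1 library than in either CAT library.

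Among shuttle factors, which carry ubiquitinated proteins to the proteasome, 4 of 7 tested were above 0. Sqstm1, an autophagy receptor that also binds ubiquitin, was at 7010 and 6415 in the Zac1 libraries and 5954 and 5173 in the CAT libraries (log2 fold change 0.27 ± 0.21, SE). Of the segregase Vcp and its cofactors 4 of 9 were above 0. Plaa, a ubiquitin-binding cofactor, was at 1201 and 1978 in the Zac1 libraries and 2277 and 1925 in the CAT libraries (-0.44 ± 0.24), once more with Zac1 replicate 9 alone far below. All 5 ubiquitin and activating-enzyme genes tested were below 0, with a median of -0.21, and with equal totals 4 were below and 1 above. Rps27a, which encodes ubiquitin fused to a ribosomal protein, was at 57412 and 69587 in the Zac1 libraries and 75477 and 79283 in the CAT libraries (-0.29 ± 0.22).

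The transcription factors known to act on proteasome genes were measured too, and 2 of 6 were above 0, or 3 with equal totals. Nfe2l1, the main activator of these genes in mammals, was at 202 and 225 in the Zac1 libraries and 222 and 293 in the CAT libraries (log2 fold change -0.26 ± 0.25, SE). Its relative Nfe2l2 was at 716 and 868 in the Zac1 libraries and 806 and 871 in the CAT libraries (-0.09 ± 0.22). Maff, a small partner of both, was at 542 and 458 in the Zac1 libraries and 347 and 388 in the CAT libraries (0.44 ± 0.23; limma adjusted p = 0.902), without overlap.

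Promoter windows of 250 bases before to 50 after the start of transcription were found in RefSeq (GRCm38.p6) for 40 of the 47 genes. The core of the antioxidant response element, TGACNNNGC on either strand, through which Nfe2l1 acts, was present in 6 of 40 windows (15.0%), against 12.5% of 27025 genes with a window. CCAAT on either strand was present in 15 of 40 (37.5%), against 37.9%. GGGGCCCC, a reported Zac1 element that reads the same on both strands, was present in 0 of 40, against 1.06%. Matches of different motifs were counted separately, also where they overlapped. The windows of Psmb5 and Psmb6 are shown because both catalytic genes hold a match to TGACNNNGC near the start, with its letters in capitals. Whether any factor binds at these matches was not tested.
Psmb5: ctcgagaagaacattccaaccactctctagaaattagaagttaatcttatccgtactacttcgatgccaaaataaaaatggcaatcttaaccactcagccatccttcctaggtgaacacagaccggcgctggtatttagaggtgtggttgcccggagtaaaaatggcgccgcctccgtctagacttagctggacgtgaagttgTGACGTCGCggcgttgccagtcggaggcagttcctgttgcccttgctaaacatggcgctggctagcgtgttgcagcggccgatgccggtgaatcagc
Psmb6: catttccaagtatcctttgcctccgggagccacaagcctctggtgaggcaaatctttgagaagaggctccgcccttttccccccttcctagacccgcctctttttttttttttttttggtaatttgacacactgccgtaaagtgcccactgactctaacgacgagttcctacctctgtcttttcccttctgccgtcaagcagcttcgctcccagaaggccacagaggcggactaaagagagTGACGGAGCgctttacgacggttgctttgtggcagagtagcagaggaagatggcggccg
The first lies at chr14:54617946-54618245 on the minus strand and holds the match from position -47, counted from the start site. The second lies at chr11:70525107-70525406 on the plus strand and holds the match from position -9. Levels of these genes are given above, and their log2 fold changes, -0.03 and 0.12, were each smaller than their SE.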

How the data were processed

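The authors' deposited table holds 4 columns of a normalized signal, not raw counts. The deposited table's name calls them TMM pseudocounts. The submitters' processing notes list edgeR and mm9. How tags were mapped and assigned to genes is not given in the sources used here. Per the labels' protocols each library came from 2 µg of total RNA, with 15 PCR cycles. The quantile formula behind such pseudocounts was inverted, with a dispersion of 0.0364 found from the values. Whole counts returned 100% of the deposited signal values within 1e-06. They served for depth, for the shares of recovered counts and for the counts given of single genes, and were not tested. Tags carry no molecular identifier, so PCR copies are counted too. The table lists genes with at least 10 counts in all, and 5 of 12866 lines had no gene ID and were left out.

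Tests were run on log2(value + 1) in R 4.3.3 with limma 3.58.1, with a variance trend, no replicate term and a minimum mean of 10. Fold changes are on that scale and are understated for low genes. With 2 transfections per group, p-values reflect only the spread between replicate transfections. In limma the spread of each gene was drawn towards that of all genes at a like level, with 14.13 prior degrees of freedom. SEs, intervals and p-values thus rest largely on this shared spread and less on the gene's own replicates. The fit was tested on simulated data. GC content was the median over GENCODE M21 transcripts, matched by gene ID for 96.6% of lines. The members and all lists were chosen with earlier results of these data known.

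Values were named by rule: in each role group the most abundant member and those with the highest and lowest fold change, the 5 smallest p in each direction, the catalytic pairs, untested members and Psmc3ip. In the lists of partners the gene with the smallest p was named by rule, and the others there were chosen after their values were seen. Protein sequences were not used here.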

Additional observations from a re-analysis of the deposited data

How the results depend on the processing

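In none of the 13 refitted alternatives did a proteasome gene or a gene of the 6 partner lists pass, and the smallest adjusted p of a proteasome gene was 0.129, shared by Psma5, Psmb2 and Psmc4 without Zac1 replicate 12 (limma). The median log2 fold change of the proteasome genes stayed below 0 in all of them, between -0.13 and -0.01, and was -0.08 without Psmc3ip and -0.02 without genes whose tag window is shared, both chosen after seeing the data. Over all genes, 110 rises became 279 with a replicate block, and 224 rises and 3 falls with the replicate block and the GC correction together. The numbers 9 and 12 are not stated to mark a shared day or batch, and the deviations of libraries of 1 number correlated at 0.2 over genes. Leaving out 1 library gave 1 to 154 rises and 0 to 5 falls over all genes, with 1 rise when either Zac1 library was left out and 5 falls without CAT replicate 9. Of the 25 named genes tested, 14 kept the sign of their fold change in every setting. The sign of the others turned in some settings, also that of Psmc6, which had the highest fold change. The cause was not tested. Psma3 was at 0.048 with equal totals and 0.085 with the GC correction, with or without the replicate block, and Psmb5 at 0.034 with equal totals. With 1 library left out, the range was -0.24 to 0.21 for Psma3, -0.40 to 0.090 for Psmb10, -0.11 to 0.35 for Psmb3, -0.19 to 0.13 for Psmb5, -0.16 to 0.47 for Psmb8 and -0.12 to 0.55 for Psmb9. It was -0.22 to 0.25 for Psmc3ip, -0.027 to 0.60 for Psmc6, -0.28 to 0.11 for Psme2, -0.050 to 0.31 for Psme3 and -0.29 to 0.085 for Psmg2. Several larger negative fold changes kept their sign but moved as far. The range was -0.92 to -0.17 for Psmb2, -0.83 to -0.054 for Psmc4 and -0.75 to -0.079 for Psma5. It was -0.72 to -0.013 for Psmd14, -0.62 to -0.076 for Psmd9 and -0.49 to -0.095 for Psmb7. In these 6 the value nearest 0 was without Zac1 replicate 9. Psmc1, at -0.34 to -0.22, and Psmb4, at -0.35 to -0.14, moved less. The planned count tests with edgeR and DESeq2 were not run. Depth limits Psmb9 and Psmb11, with 15 or fewer counts in every library.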
